A study of Mus musculus with 36 samples.

Results

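Islets of mice without Gαz (KO) were compared with islets of wild-type (WT) mice after both had been fed a high-fat diet (HFD), on 7 of the 18 gene-level arrays of the series. The KO HFD arrays were those of islets 10, 17 and 18, and the WT HFD arrays those of islets 7, 8, 9 and 16, numbered as in the sample titles. The KO HFD array of islet 11 was left out. The study used 3 KO HFD arrays and reports that anomalies led it to remove 1 more. The sample labels do not say which one it dropped, so that the choice of islet 11 is not settled by them. In the array of islet 11 the intestinal epithelium genes had a mean of 11.01, whereas no array in the fit exceeded 7.92. Whether this was the anomaly that the study saw is not stated. The values of islet 11 are given beside the results, but not as those of a clean further replicate. All mice were male C57BL/6N. The KO mice lacked 1 coding exon of the Gαz gene, Gnaz, in every tissue, so that other organs had lost Gαz as well as the islets. From 11 weeks of age the mice ate a diet with 45 kcal% fat (HFD) or 10 kcal% fat (control diet, CD) for 16 weeks. The 5 WT CD and 5 KO CD arrays entered the fit and gave the genotype difference on the other diet. The age at isolation was 27 weeks by the study's methods, 6 months by the sample labels and 37 to 40 weeks by the deposited protocol, and this conflict could not be settled.

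Gαz is an alpha subunit of the inhibitory class of heterotrimeric G proteins. In the beta cell it lowers the production of cAMP by adenylyl cyclase, and cAMP amplifies the insulin secretion that glucose sets off. A beta cell makes very large amounts of proinsulin, which enters the endoplasmic reticulum (ER) through the translocon, is folded there with the help of chaperones, and travels through the Golgi apparatus into secretory granules.

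Each array gave 1 value on the log2 scale for 23332 transcript clusters, of which 14860 genes with a single symbol were tested. A step of 1 on this scale is a 2-fold difference. The number of arrays limits the precision. The p values set each group difference against the spread between islet preparations within groups, estimated over all 17 arrays of the 4 groups in the fit. The correlation between arrays across genes was 0.99 to 0.995 within KO HFD, 0.994 to 0.996 within WT HFD and 0.983 to 0.994 between the groups, and no pair of arrays held identical values. Over all clusters the arrays had medians of 7.94 to 7.98 in KO HFD and 8.02 to 8.06 in WT HFD islets, and over the genes tested of 8.34 to 8.40 against 8.48 to 8.64. Results are therefore given as deposited and after each array was centred on its median over all clusters. Of the 10 islet hormones and peptides measured, Ins2 (insulin), Iapp (islet amyloid polypeptide) and Gcg (glucagon) were at or above 13.74 in each of the 7 arrays.

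Gnaz (cluster 6768843) read 10.09, 10.03 and 10.11 in the KO HFD arrays of islets 10, 17 and 18, and 11.26, 11.07, 11.05 and 11.02 in the WT HFD arrays of islets 7, 8, 9 and 16. The groups did not overlap, and the array of KO HFD islet 11 lay with the other KO HFD arrays at 10.06. The log2 fold change was −1.02 (SE 0.08 and limma adjusted p = 4.1e-06). The signal that remained in KO islets is that of probes along a gene of which the KO mice lack 1 exon, and the probes of that exon were not analysed here.

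On the HFD, far more genes were lower than higher in KO islets. At an adjusted p under 0.05, 4372 of the 14860 genes (29.4%) passed the test of KO HFD against WT HFD islets. Of all genes tested, 28.1% were lower in KO HFD islets and 1.32% were higher. After centring, 13.0% were lower (1936 genes) and 2.12% were higher (315 genes). All 1936 genes lower after centring were among the 4176 genes lower as deposited, and 195 of the 196 genes that were higher as deposited stayed higher after centring. No gene was called with opposite signs. The split therefore depended on the scaling between arrays, with 196 higher and 4176 lower genes as deposited, 315 and 1936 after centring, 731 and 795 when arrays were centred over the genes tested, 716 and 924 with quantile normalization, and 786 and 769 with cyclic loess. Over all genes the median difference was −0.13 as deposited and −0.05 after centring over all clusters, and each group of genes below is set against these values. With only the 7 HFD arrays in the fit, 3086 genes were called as deposited. Leaving out single arrays gave 2636 called genes without WT HFD 7, 2895 without KO HFD 18 and 2936 to 4634 without any other array. The lower genes numbered 2475 without WT HFD 7, 2682 without KO HFD 18 and 2749 without KO HFD 17, and the higher genes 125 without KO HFD 10. After centring, 1113 genes were called without KO HFD 10, 1207 without WT HFD 7 and 1257 without KO HFD 17. The 3 KO HFD arrays lay below all 4 WT HFD arrays in 36.5% of the genes tested and above them in 2.22%.

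The shift grew with the signal of the gene. In the dimmest decile of the genes the median log2 fold change was −0.02 and 31 of 1486 genes were lower. In the ninth decile it was −0.21, and in the brightest decile 771 of 1486 genes were lower. After centring, the medians ran from 0.05 in the dimmest decile to −0.13 in the ninth. On the CD the same deciles had medians from −0.01 to 0.09.

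**Figure D1:**
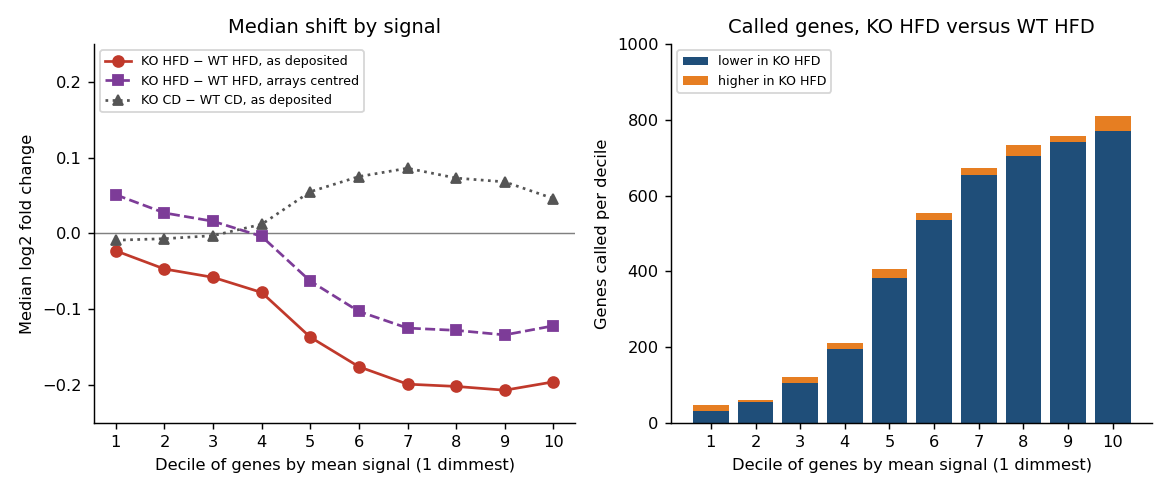
Left, median log2 fold change in deciles of the 14860 genes ordered by mean signal, for KO HFD minus WT HFD as deposited (circles), the same after centring each array (squares), and KO CD minus WT CD (triangles). Right, number of genes of each decile (1486 genes each) that were lower or higher in KO HFD islets. The number of lower genes grew from 31 in the dimmest to 771 in the brightest decile.

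The genes with the largest falls encode receptors, secreted proteins and regulators of transcription and signaling. Mc5r, a melanocortin receptor that couples to cAMP production, read 6.44, 6.97 and 8.31 in KO HFD and 9.62, 10.58, 10.14 and 9.85 in WT HFD islets. The groups did not overlap, and the KO HFD arrays differed among themselves by more than the WT HFD arrays did. Its log2 fold change was −2.81 (SE 0.48 and adjusted p = 0.0013). The array of KO HFD islet 11 read 8.92 for Mc5r, also below every WT HFD array.

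Serpina7, the thyroxine-binding globulin that carries thyroid hormone, read 8.23, 9.58 and 10.00 in KO HFD and 10.95, 11.45, 11.00 and 11.51 in WT HFD islets. Islet 10 was the lowest KO HFD array, and the log2 fold change was −1.96 (SE 0.35 and adjusted p = 0.0016). The 13 measured genes of thyroid hormone transport and action had a median signal of 9.81, in the eighth decile, where 47.4% were lower. Of them, 5 were lower (38.5%, and 28.1% among all genes). None was higher and 8 did not pass, with a median of −0.10. That median was above the median of all genes. Slc16a10, which moves thyroid hormones across membranes, fell by 0.71 (adjusted p = 5.1e-04), and Ttr (transthyretin), the other carrier, fell by 0.28 (adjusted p = 0.026). The call of Ttr was lost after centring (adjusted p = 0.14), without islet 10 (−0.12, adjusted p = 0.13) and without islet 7 (adjusted p = 0.056).

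Hdac9, a class IIa histone deacetylase that binds Mef2 transcription factors, read 8.01, 8.58 and 8.98 in KO HFD and 9.83, 10.03, 10.08 and 10.00 in WT HFD islets. All 3 KO HFD arrays were below all WT HFD arrays, with a log2 fold change of −1.46 (SE 0.20 and adjusted p = 3.9e-04). Among the 12 class IIa deacetylase, Mef2 and Sik genes, 5 were lower (41.7%, against 28.1% of all genes), 1 was higher and 6 did not pass. Their median signal of 9.44 lay in the seventh decile of genes, where 44.0% were lower. Mef2c, a partner of these deacetylases, fell by 0.66 (adjusted p = 0.0016), and Hdac5 fell by 0.49 (adjusted p = 0.0018). Hdac4 stood at 0.01 and Mef2a at 0.00 in log2 fold change, without passing the test. The higher gene was Sik1, a kinase that cAMP induces and that phosphorylates class IIa deacetylases, with a log2 fold change of 0.58 (SE 0.16 and adjusted p = 0.012) that became 0.46 without islet 10 (adjusted p = 0.060).

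Tnfrsf11b, which encodes osteoprotegerin, a decoy receptor for the cytokine RANKL, read 8.51, 8.75 and 9.21 in KO HFD and 10.36, 10.34, 10.19 and 10.18 in WT HFD islets. The WT HFD arrays lay close together and the groups did not overlap. The log2 fold change was −1.44 (SE 0.20 and adjusted p = 4.4e-04). Of the other genes of the osteoprotegerin and prolactin axis, Tnfrsf11a (the receptor RANK) fell by 0.27 and Men1 (menin, a repressor of islet growth) fell by 0.30 as deposited. Tnfsf11, which encodes RANKL, was at −0.07 and did not pass, and neither did Tph1 (0.04) or Tph2 (−0.17), the enzymes that start serotonin synthesis. Of the 13 genes of this list, 3 were lower (23.1%, near the 28.1% of all genes) and none was higher. The call of Tnfrsf11a was lost without islet 7, 17 or 18 (−0.25 to −0.21, adjusted p up to 0.10).

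Arrdc4, an arrestin-domain protein induced by glucose through the transcription factor ChREBP, read 8.49, 8.40 and 8.95 in KO HFD and 9.67, 10.03, 9.90 and 9.69 in WT HFD islets. The groups did not overlap, and the log2 fold change was −1.21 (SE 0.15 and adjusted p = 3.2e-04). A glucose response element holds E-boxes, whose core letters CACGTG occur within 250 bases before the start of 1025 of 11869 genes with a promoter (8.64%). Of the 14 glucose-induced genes with a promoter, 4 held these letters (28.6%), namely Arrdc4, Mlx, Mlxipl and Tef. The stretch of Arrdc4 is printed here because Arrdc4 was the gene of the list with the smallest p. It holds 1 match, at chr7:68749416-68749441 on the minus strand of GRCm38.p6 in RefSeq, with the motif in capitals.
Arrdc4: aggtcctgtgCACGTGcactatggtg
Of all 1025 genes with this motif, 323 were lower and 14 higher (28.1% and 1.32% among all genes), with a median of −0.15, close to that of all genes. Among the 17 glucose-induced genes measured, 6 were lower (35.3%, near the 28.1% of all genes) and 11 did not pass, with a median of −0.24, and 3 or 4 were lower under the other scalings. Rgs16, which speeds the deactivation of Gα subunits, and Mlx, the dimer partner of ChREBP, fell by 1.16 and 0.40. Txnip, a close relative of Arrdc4 that glucose also induces, had a log2 fold change of −0.13 and Mlxipl (ChREBP) of 0.04, and neither passed.

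**Figure D2:**
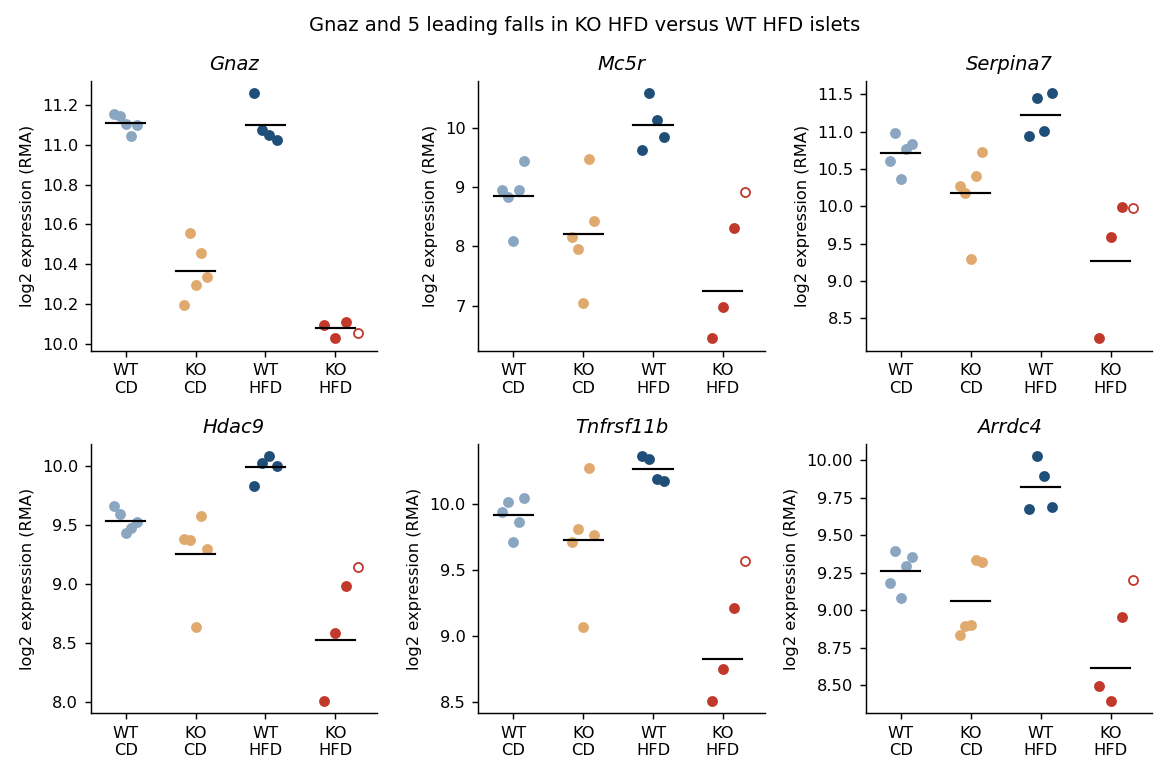
RMA log2 expression of Gnaz, Mc5r, Serpina7, Hdac9, Tnfrsf11b and Arrdc4 in single arrays of WT CD, KO CD, WT HFD and KO HFD islets. Filled points are arrays in the fit, lines are their means and the open circle is the array of KO HFD islet 11. In each panel all KO HFD points lie below all WT HFD points.

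The next of the largest falls came from genes with varied products. Lgi2, a secreted leucine-rich protein, fell by 1.81 and Nrsn1 (neurensin), a vesicle membrane protein of neurons, fell by 1.16. Spon2, an extracellular matrix protein, fell by 1.21, and Gsto2, a glutathione transferase, fell by 1.14. Klhl38, a kelch-like protein, fell by 1.26 and BC023105, which is named only, fell by 1.57. Prc1, which organizes the spindle midzone in cell division, fell by 1.12. In the 15 largest falls the adjusted p was between 3.2e-04 and 0.022, and BC023105 lost its call without islet 10 (−1.38, adjusted p = 0.078) or 18 (−1.57, adjusted p = 0.057).

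Genes that bring proteins into the ER were lower as a group. Of 31 measured genes of the signal peptidase, the translocon and the oligosaccharyltransferase, 25 were lower (80.6%), none was higher and 6 did not pass. Among all genes 28.1% were lower. The list had a median signal of 11.63, in the brightest decile of genes, where 51.9% were lower and the median was −0.20. The median log2 fold change of the list was −0.36. It stayed below 0 under every scaling, from −0.29 after centring over all clusters to −0.18 after cyclic loess, although the number of lower genes dropped to 18 and 12, and to 11 after centring over the genes tested.
Spcs1, a signal peptidase subunit, read 9.41, 9.74 and 9.65 in KO HFD and 10.64, 10.30, 10.32 and 10.45 in WT HFD islets, and 10.26 in the array of KO HFD islet 11. The fitted log2 fold change was −0.83 (SE 0.10 and adjusted p = 3.0e-04). Spcs2 and Spcs3 of the same complex fell by 0.54 and 0.51. Ssr3 of the TRAP complex beside the translocon fell by 0.60, and Rpn1, which helps to transfer sugar chains to new proteins, by 0.45. Sec62 (−0.01) and Stt3b (0.00) did not pass.

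The ER chaperones were lower as a group too. Their median signal of 11.51 lay in the brightest decile of genes, where 51.9% were lower. Of 45 genes, 30 were lower (66.7%, against 28.1% of all genes), none was higher and 15 did not pass, with a median of −0.28. After centring 19 were lower (13.0% among all genes), with centring over the genes tested 10 were lower and 2 higher, with quantile normalization 12 and 1, and with cyclic loess 9 and 3. The median lay between −0.21 and −0.10 under these scalings. Calr (calreticulin), a lectin chaperone, read 12.55, 12.68 and 12.66 in KO HFD and 13.02, 12.96, 12.95 and 13.05 in WT HFD islets, which did not overlap. The fitted log2 fold change was −0.36 (SE 0.05 and adjusted p = 5.7e-04). Sdf2l1, a partner of the chaperone BiP, fell by 0.68, Manf, a secreted ER stress protein, by 0.46, and Atf4, a transcription factor of the integrated stress response, by 0.46. The stress genes Ddit3 (CHOP), Herpud1 and Ern1 (IRE1) did not pass, at −0.16, 0.08 and 0.04.

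The ER stress response element (ERSE) binds NF-Y and the stress factors ATF6 and XBP1, and its letters are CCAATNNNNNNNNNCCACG. On either strand, within 250 bases before the gene start, it occurred in 15 of 11869 genes (0.126%), 8 of them among the 42 chaperone genes with a promoter (19.0%). The stretches of 6 of these 8 genes are printed, from RefSeq on GRCm38.p6, with the outer parts of the element in capitals and a reversed element written CGTGG and ATTGG.
Hspa5 (chr2:34772015-34772053, plus strand): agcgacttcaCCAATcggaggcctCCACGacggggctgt
Hsp90b1 (chr10:86705523-86705561, minus strand): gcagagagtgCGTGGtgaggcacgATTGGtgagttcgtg
Calr (chr8:84847065-84847103, minus strand): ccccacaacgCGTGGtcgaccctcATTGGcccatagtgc
Canx (chr11:50325790-50325828, minus strand): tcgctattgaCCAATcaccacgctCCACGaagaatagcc
Pdia6 (chr12:17266481-17266519, plus strand): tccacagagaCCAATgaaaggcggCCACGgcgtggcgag
Syvn1 (chr19:6046522-6046560, plus strand): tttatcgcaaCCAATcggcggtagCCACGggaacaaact
Hspa5, which encodes BiP, read 12.76, 12.77 and 12.73 in KO HFD and 13.23, 12.96, 12.95 and 13.09 in WT HFD islets, and its log2 fold change was −0.30 (SE 0.07 and adjusted p = 0.0060). Hsp90b1 (GRP94) fell by 0.28, Pdia6, a protein disulfide isomerase, by 0.32, and Syvn1, a ubiquitin ligase of ER-associated degradation, by 0.31. Canx (calnexin) carries the same letters but was at −0.11 and did not pass (limma adjusted p = 0.12), nor did Derl3 at −0.51 (adjusted p = 0.083). Of all 15 genes with the element, 8 were lower (against 28.1% of all genes and 51.9% of the brightest decile), none was higher and 7 did not pass. Of the lower genes, only Adcy3 and Alg12 are outside the chaperone list, so that this count is no separate result. The median of the 15 genes was −0.28, and 6 were lower after centring (against 13.0% of all genes).

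Most genes of the transport between the ER and the Golgi were lower. Their median signal of 11.47 lay in the brightest decile of genes, where 51.9% were lower. Of 49 coat and transport genes, 41 were lower (83.7%, against 28.1% of all genes), 8 did not pass and none was higher. The median was −0.32. After centring 34 were lower, against 13.0% of all genes, and after quantile normalization 23, with medians of −0.25 and −0.16. Kdelr3, a receptor that returns chaperones from the Golgi to the ER, read 9.12, 8.67 and 9.02 in KO HFD and 9.91, 10.25, 9.74 and 9.93 in WT HFD islets. Its log2 fold change was −1.02 (SE 0.14 and adjusted p = 4.5e-04), and its relatives Kdelr1 and Kdelr2 fell by 0.42 and 0.32. The COPII coat gene Sec13 fell by 0.52 and the COPI coat genes Copb2 and Cope by 0.46 and 0.44. The cargo selector genes Sec24a, Sec24b, Sec24c and Sec24d did not pass, at −0.15, −0.06, −0.15 and −0.21.

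The 41 glycosylation enzymes measured had a median signal of 10.11, in the ninth decile of genes, where 49.9% were lower. Of them, 31 were lower (75.6%, against 28.1% of all genes) and 10 did not pass, with a median of −0.34. After centring the count was 23 lower and 2 higher, B3galt2 and Man2a1, and the median was −0.27. Chst12, a chondroitin sulfotransferase, fell by 0.97 (SE 0.10 and adjusted p = 2.4e-04), from 12.00 to 12.20 in WT HFD to 10.84 to 11.38 in KO HFD islets. Slc35c1, the GDP-fucose transporter of the Golgi, fell by 0.65, and Alg12, a mannosyltransferase of the ER, by 0.58. Mgat5 (−0.12), Mgat3 (−0.14) and Fut8 (0.01), which branch or fucosylate sugar chains in the Golgi, did not pass.

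**Figure D3:**
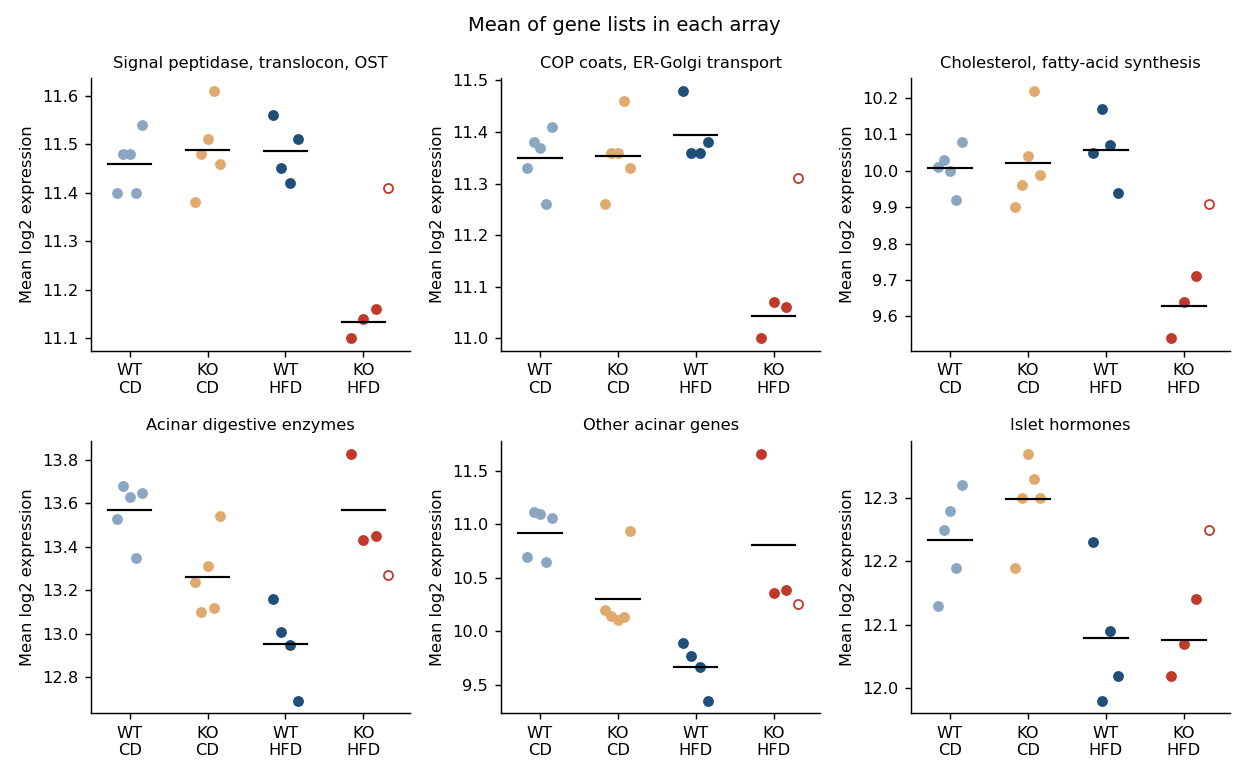
Mean log2 expression of the genes of 6 lists in single arrays of WT CD, KO CD, WT HFD and KO HFD islets. Lines are group means and the open circle is the array of KO HFD islet 11. The 3 KO HFD arrays lie lowest for the ER entry, coat and lipid synthesis lists, the WT HFD arrays lie below all KO HFD arrays for both acinar lists and below every other array for the other acinar genes, and the hormone means of KO HFD and WT HFD islets overlap.

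The mean of the signal peptidase and translocon list was 11.10 to 11.16 in KO HFD islets, 11.42 to 11.56 in WT HFD, 11.38 to 11.61 in KO CD and 11.40 to 11.54 in WT CD islets. KO HFD islets thus lay below the other 3 groups, which overlapped. The array of KO HFD islet 11 was at 11.41. For the coat and transport list it was at 11.31, between the KO HFD arrays (11.00 to 11.07) and the WT HFD arrays (11.36 to 11.48). Over all 4372 genes called, the array of KO HFD islet 11 was on the KO side of every WT HFD array for 2541, and it was nearer to the KO HFD mean than to the WT HFD mean for 1693. These counts were not taken over all genes. Genes were called because the WT HFD arrays lay apart from the KO HFD arrays, so that any further array tends to fall on the KO side. The 2541 genes are thus no measure of how far islet 11 resembles the KO HFD arrays. With the array of KO HFD islet 11 in the fit, 3157 genes were called, and the lower genes were 21 of 31, 22 of 45, 35 of 49 and 22 of 41 in the 4 secretory lists.

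Genes of lipid synthesis were also lower as a group. The 30 genes of cholesterol and fatty-acid synthesis had a median signal of 10.18, in the ninth decile of genes, where 49.9% were lower. Of them, 23 were lower (76.7%, against 28.1% of all genes), none was higher and 7 did not pass, with a median of −0.41. After centring 16 were lower, and 10 were lower with each of the 3 other scalings (1 was higher with cyclic loess), where the median stayed at or below −0.20. With the acinar covariate none passed, at a median of −0.41. Hsd17b12, which elongates long-chain fatty acids, read 9.38, 9.84 and 10.01 in KO HFD and 10.89, 10.68, 10.78 and 10.83 in WT HFD islets, with a log2 fold change of −1.05 (SE 0.14 and adjusted p = 3.9e-04). Of the cholesterol pathway, Cyp51 (a sterol demethylase) fell by 0.85, Msmo1 by 0.92, Hmgcs1 by 0.71 and Sqle by 0.63. Insig1, a sterol-regulated retention factor of the ER, fell by 0.81. The regulators Srebf1 and Srebf2 fell by 0.28 and 0.42 as deposited, and Srebf2 lost its call without islet 10 (−0.25, adjusted p = 0.12) or 9 (adjusted p = 0.055). Acaca (−0.01), Acly (0.03) and Scd1 (0.35) did not pass, whereas Scd2, the desaturase relative of Scd1, fell by 0.85.

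Fatty-acid oxidation genes had a median near 0. Of 17 genes, 4 were higher (23.5%, against 1.32% of all genes), 1 was lower and 12 did not pass, with a median of −0.03. Pdk4, which restrains glucose oxidation, read 10.28, 9.45 and 9.42 in KO HFD and 9.40, 8.62, 9.10 and 9.05 in WT HFD islets, so that the lowest KO HFD array was just above the highest WT HFD array. The fitted log2 fold change was 0.67 (SE 0.20 and adjusted p = 0.018), and 0.39 without islet 10 (adjusted p = 0.11). Ppargc1a, a coactivator of mitochondrial genes, and Fabp4 and Aldh1a7 rose by 0.39, 0.60 and 1.04, and the Aldh1a7 value rests largely on islet 10 (8.39 against 6.78 and 6.68). Fabp4 lost its call without islet 7 (0.53) or 10 (0.41, adjusted p = 0.12), and Ppargc1a without islet 8, 17 or 18 (0.29 to 0.35, adjusted p up to 0.097). The lower gene was Fabp3, a fatty-acid binding protein, at −0.87 (SE 0.20 and adjusted p = 0.0056).

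Genes of protein turnover and mitochondria were lower in part, and their shift was close to that of all genes under some scalings. Of 33 proteasome genes 17 were lower, of 66 mitochondrial ribosome genes 33, and of 51 genes of the respiratory chain and ATP synthase 19, and none was higher. Among all genes 28.1% were lower. The proteasome and respiratory chain lists had median signals of 10.18 and 10.31, in the ninth decile of genes, where 49.9% were lower. The proteasome share of 51.5% was near that value and the respiratory chain share of 37.3% was below it. The mitochondrial ribosome list had a median signal of 9.16, in the seventh decile, where 44.0% were lower. The medians were −0.24, −0.24 and −0.19. After centring 8, 13 and 3 genes were lower (13.0% among all genes), and after cyclic loess 2, 5 and 0, with a respiratory chain median of 0.00. Psmb4 and Psmd7 of the proteasome fell by 0.37 and 0.40, and Mrpl49 of the mitochondrial ribosome by 0.54. Cox6a2 had a log2 fold change of −1.08 (SE 0.36 and adjusted p = 0.035), but its KO HFD arrays read 9.67, 11.81 and 11.94 and islet 10 alone was far below the WT HFD range of 11.90 to 12.43. Without islet 10 its log2 fold change was −0.34 (adjusted p = 0.098), and its call was also lost without islet 7 (0.091) or 9 (0.073).

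Receptors of the islet were called in both directions. Of 37 receptors, 8 were lower (21.6%, below the 28.1% of all genes), 3 were higher (8.11%, against 1.32%) and 26 did not pass. The median was −0.12, close to that of all genes. Gprc5b, an orphan receptor that restrains insulin secretion, read 7.78, 7.79 and 8.11 in KO HFD and 8.80, 9.01, 8.97 and 8.68 in WT HFD islets, with a log2 fold change of −0.97 (SE 0.11 and adjusted p = 2.4e-04). Ffar2, a receptor for short-chain fatty acids, fell by 0.94, Taar1, a trace amine receptor, by 1.02, and Casr, the calcium-sensing receptor, by 0.42. The higher receptors were Cckar (1.56), P2ry14 (1.21) and the somatostatin receptor gene Sstr4 (0.30). Cckar also belongs to the list of other acinar genes, of which 16 of 23 were higher, and with the acinar enzyme mean as a covariate Cckar was at 0.01 and P2ry14 at −0.05, without passing. Glp1r (−0.12), Gipr (−0.03) and Ptger3 (0.35), which encode the GLP-1, GIP and EP3 receptors, did not pass.

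The 14 Gα subunit genes, downstream of the receptors, had a median signal of 10.59, in the ninth decile, where 49.9% were lower. Of them, 6 were lower with Gnaz among them (42.9%, and 28.1% among all genes), and none was higher. The median was −0.16 as deposited and 0.005 when arrays were centred over the genes tested. Gnat2, a transducin subunit best known from cone photoreceptors, fell by 0.97 (SE 0.12 and adjusted p = 3.2e-04) and Gnas, which stimulates adenylyl cyclase, by 0.21. The inhibitory subunits Gnai2 (−0.15), Gnai3 (−0.10) and Gnao1 (−0.13) did not pass. Of 33 enzymes and effectors of cAMP, 8 were lower (24.2%, near the 28.1% of all genes) and 25 did not pass. Their median was −0.09, above that of all genes. The protein kinase A genes Prkacb, Prkaca, Prkar1a and Prkar2a fell by 0.32, 0.31, 0.26 and 0.33, as deposited. The call of Prkaca was lost without islet 18 (adjusted p = 0.059), and that of Prkar2a without islet 7, 17 or 18 (adjusted p up to 0.11). After centring, Prkacb and Prkar1a remained lower and Pde1c, a phosphodiesterase, was higher, and under cyclic loess no gene of this list was lower and 6 were higher, so its direction depended on the scaling.

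Insulin, glucagon and amylin transcripts did not pass the test. Ins2 read 13.74, 13.83 and 13.82 in KO HFD and 13.95, 13.86, 13.86 and 13.87 in WT HFD islets, and the log2 fold change of −0.09 did not pass (SE 0.04 and adjusted p = 0.12). Gcg and Iapp were both at −0.11 and did not pass. The highest mean signal of any gene tested was 14.38, so that Ins2, Gcg and Iapp lay near the top of the measured range. Whether differences are compressed at that level was not tested, so these results do not show that the transcripts were unchanged. Sst (somatostatin), Ppy (pancreatic polypeptide) and Pyy (peptide YY) fell by 0.38, 0.18 and 0.48, of which only the fall of Pyy passed after centring. The call of Ppy was lost under 11 of the 17 omissions of 1 array, among them that of islet 10 (−0.10, adjusted p = 0.24), with values from −0.21 to −0.10. The higher member of this list was Gal (galanin), at 1.29. Of 19 beta-cell transcription factors, 5 were lower as deposited (26.3%, near the 28.1% of all genes) and none after centring. Among the 5 were Pdx1 (−0.39) and Nkx6-1 (−0.32). Pdx1 lost its call without islet 7, 17 or 18 (−0.41 to −0.29) and Nkx6-1 without islet 7, 10 or 17 (−0.30 to −0.25). Mafa (0.18), Neurod1 (−0.11) and Pax6 (−0.07) did not pass.

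The 15 granule and prohormone genes had a median signal of 12.82, in the brightest decile of genes, where 51.9% were lower. Of them, 8 were lower (53.3%, near that share, and 28.1% among all genes) and 1 was higher as deposited. After centring none was lower. The prohormone convertase gene Pcsk1 fell by 0.37 and the granin gene Chgb by 0.22, as deposited. Pcsk1 was at −0.15 without islet 10 (adjusted p = 0.13) and also lost its call without islet 7 or 16. The 27 genes of the exocytosis machinery had a median signal of 10.86, also in the brightest decile. Of them, 10 were lower (37.0%, against 28.1% of all genes and 51.9% of that decile) and 17 did not pass. After centring 7 were lower, and 3 with each of the other scalings, of which quantile normalization and cyclic loess each gave 1 higher gene. Napb, which encodes an adaptor that helps to take apart SNARE complexes after fusion, read 8.45, 8.66 and 8.70 in KO HFD and 9.67, 9.38, 9.55 and 9.43 in WT HFD islets. Its log2 fold change was −0.90 (SE 0.11 and adjusted p = 3.2e-04), and the SNARE genes Vamp2 and Snap25 fell by 0.33 and 0.25, the latter not without islet 10 (−0.18, adjusted p = 0.072). The 17 genes of glucose sensing and excitability had a median signal of 10.61, in the ninth decile, where 49.9% were lower. Of them, 7 were lower (41.2%, and 28.1% among all genes), 3 were higher and 7 did not pass. The lower genes were 3 after centring, 1 with quantile normalization and 0 with the other scalings. The calcium channel genes Cacna1d, Cacna1c and Cacna1a rose by 0.26, 0.21 and 0.20, and these calls were absent with the array of KO HFD islet 11 in the fit, which read 10.30 for Cacna1d against 10.48 to 10.56 in WT HFD islets. The potassium channel genes Kcnn3 and Kcnj11 fell by 0.86 and 0.38, and Kcnn3 was at −0.53 without islet 10 (adjusted p = 0.056). The calls of Cacna1c and Cacna1a did not outlast the omission of single arrays, 6 and 8 of which ended them.

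Neuronal and cytoskeletal genes that islet cells also use formed 1 of the lists with the lowest medians. Of 25 genes, 15 were lower (60.0%, against 28.1% of all genes), 2 were higher and 8 did not pass. The median was −0.38, and −0.21 to −0.30 under the other scalings. Hapln4, a matrix link protein, read 10.14, 10.29 and 10.29 in KO HFD and 10.95, 11.12, 10.99 and 11.06 in WT HFD islets, with a log2 fold change of −0.79 (SE 0.09 and adjusted p = 2.4e-04). In the array of KO HFD islet 11 it read 10.99, inside the WT HFD range. Hapln1, of the same family, fell by 0.96, Cd200, a membrane glycoprotein, fell by 0.87, and Crmp1, a cytoskeletal adaptor, by 0.69. The higher genes were Nmnat2, an NAD-synthesizing enzyme of axons, and Dlk1, a Delta-like membrane protein.

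Of 38 cell cycle genes, 13 were lower (34.2%, near the 28.1% of all genes), none was higher and 25 did not pass. Their median was −0.31, and 5 were lower after quantile normalization and with the array of KO HFD islet 11 in the fit. Ccna2 (cyclin A2) read 7.00, 7.55 and 7.38 in KO HFD and 8.19, 7.91, 7.97 and 9.16 in WT HFD islets, with islet 16 the highest. Its log2 fold change was −1.0 (SE 0.30 and adjusted p = 0.022), and the array of KO HFD islet 11 read 8.23. The call was lost without islet 10, 16 or 18 (−1.04 to −0.72, adjusted p up to 0.085). Ccnd1 (cyclin D1) and the replication helicase gene Mcm2 both fell by 0.35, Mcm2 by 0.31 without islet 10 (adjusted p = 0.058). Mki67, the gene of the proliferation marker Ki67, was at −0.31 (SE 0.35 and adjusted p = 0.54) and its groups overlapped, from 5.16 to 5.77 in KO HFD and 5.25 to 6.72 in WT HFD islets.

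Immediate early and stress genes respond quickly to stimuli and to the handling of tissue. Of 25 genes, 4 were higher (16.0%, against 1.32% of all genes), 1 was lower and 20 did not pass. The median was 0.19, and 8 were higher after quantile normalization. Atf3, a stress-induced transcription factor, read 11.08, 10.38 and 10.65 in KO HFD and 9.90, 9.41, 9.63 and 9.49 in WT HFD islets, with a log2 fold change of 1.10 (SE 0.26 and adjusted p = 0.0073). The array of KO HFD islet 11 read 9.81, inside the WT HFD range. Sgk1, a kinase induced by glucocorticoids, rose by 0.64 and Klf6 by 0.45 (0.26 without islet 10, adjusted p = 0.23, with the call also lost without islet 6, 7, 8, 9 or 16), whereas Fos (0.30), Egr1 (0.16) and Jun (0.13) did not pass.

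Genes of acinar cells, the enzyme-secreting cells that surround the islets in the pancreas, were the main group of higher genes among the 36 lists. In such bulk samples, fewer cells of a type and less RNA per cell cannot be told apart. Of 14 digestive enzyme genes, 13 were higher (92.9%, against 1.32% of all genes), with a median of 0.52. Of 23 other acinar genes, 16 were higher (69.6%), with a median of 1.27. Fkbp11, an ER isomerase of secretory cells, fell by 0.26, a call that 9 of the 17 omissions of 1 array ended (limma adjusted p up to 0.17). Both medians stayed above 0 under every scaling. The 15 largest rises with groups that did not overlap held 11 genes of these lists, led by Cuzd1, a zymogen granule protein. It read 12.73, 11.10 and 11.15 in KO HFD and 10.16, 9.80, 9.67 and 9.15 in WT HFD islets, with a log2 fold change of 1.97 (SE 0.36 and adjusted p = 0.0019). Spink1, a trypsin inhibitor, rose by 1.92 and Gp2, a membrane protein of zymogen granules, by 1.75. Digestive enzymes belong to families with near-identical copies, so that their probes may respond to relatives.

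The mean of the digestive enzymes was 13.83, 13.43 and 13.45 in KO HFD islets, 13.16, 13.01, 12.95 and 12.69 in WT HFD islets, and 13.27 in the array of KO HFD islet 11. It was 13.35 to 13.68 in WT CD and 13.10 to 13.54 in KO CD islets, so that WT HFD islets overlapped with KO CD islets at their upper end and KO HFD islets overlapped with both CD groups. The summed linear signal of the other acinar genes was 84672 to 153923 in KO HFD and 45896 to 61377 in WT HFD islets, and islet 10 gave the highest value. With the enzyme mean of each array as a covariate, which is itself fully separated between the groups, 100 genes were called (5 higher and 95 lower), the median standard error rose from 0.084 to 0.135, and the median of all genes was −0.16. Gnaz (adjusted p = 0.0054), Kdelr3 (0.026), Ssr3 (0.022) and Arrdc4 (0.049) kept their calls, and Mc5r (0.11), Serpina7 (0.14), Hdac9 (0.071) and Tnfrsf11b (0.062) did not. The medians of the signal peptidase, coat and lipid synthesis lists in this fit were −0.35, −0.34 and −0.41, while their lower genes dropped to 6 of 31, 6 of 49 and 0 of 30. How far acinar RNA accounts for the other differences was not tested beyond this fit.

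Among genes of other cells inside the islets, the count of lower endothelial genes depended on the scaling. Of 18 genes, 12 were lower (66.7%, against 28.1% of all genes), 1 was higher and 5 did not pass, with a median of −0.25. After centring 6 were lower, and with quantile normalization, cyclic loess or centring over the genes tested 1 was. Emcn (endomucin) fell by 0.43 and Cd34 by 0.49, whereas Lyve1, a hyaluronan receptor of lymphatic endothelium and some macrophages, rose. It read 10.16, 10.03 and 9.46 in KO HFD and 9.29, 8.71, 9.12 and 8.33 in WT HFD islets, with a log2 fold change of 1.02 (SE 0.27 and adjusted p = 0.013), and 0.88 without islet 10 (adjusted p = 0.054). Vegfa, which beta cells release to attract vessels, fell by 0.21 as deposited (adjusted p = 0.019) and did not pass after centring (adjusted p = 0.17) or without islet 7 (adjusted p = 0.051) or 10 (adjusted p = 0.081).

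Of 23 leukocyte genes, 1 was lower and 22 did not pass, and of 19 stellate cell and fibroblast genes 3 were lower. The lower shares were 4.35% and 15.8%, against 28.1% of all genes. The lower leukocyte gene was Fcer1g, a signaling chain of immune receptors, at −0.66 (adjusted p = 0.025), which did not pass without islet 7 (adjusted p = 0.061) or 18 (adjusted p = 0.11). Of 15 duct genes, 2 were higher (13.3%, against 1.32% of all genes) and 1 lower (6.67%, against 28.1%). The higher ones were Muc1, a mucin that acinar cells also carry, and Pkhd1, which was at 0.35 without islet 10 (limma adjusted p = 0.073). Of 12 intestinal epithelium genes, 1 was lower, Vil1 (8.33%, against 28.1% of all genes). Their mean was 7.74 to 7.83 in KO HFD and 7.81 to 7.91 in WT HFD islets, but 11.01 in the array of KO HFD islet 11, where Apoa4, an intestinal apolipoprotein, read 14.05 against 7.32 to 8.01 in the other 7 HFD arrays.

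**Figure D4:**
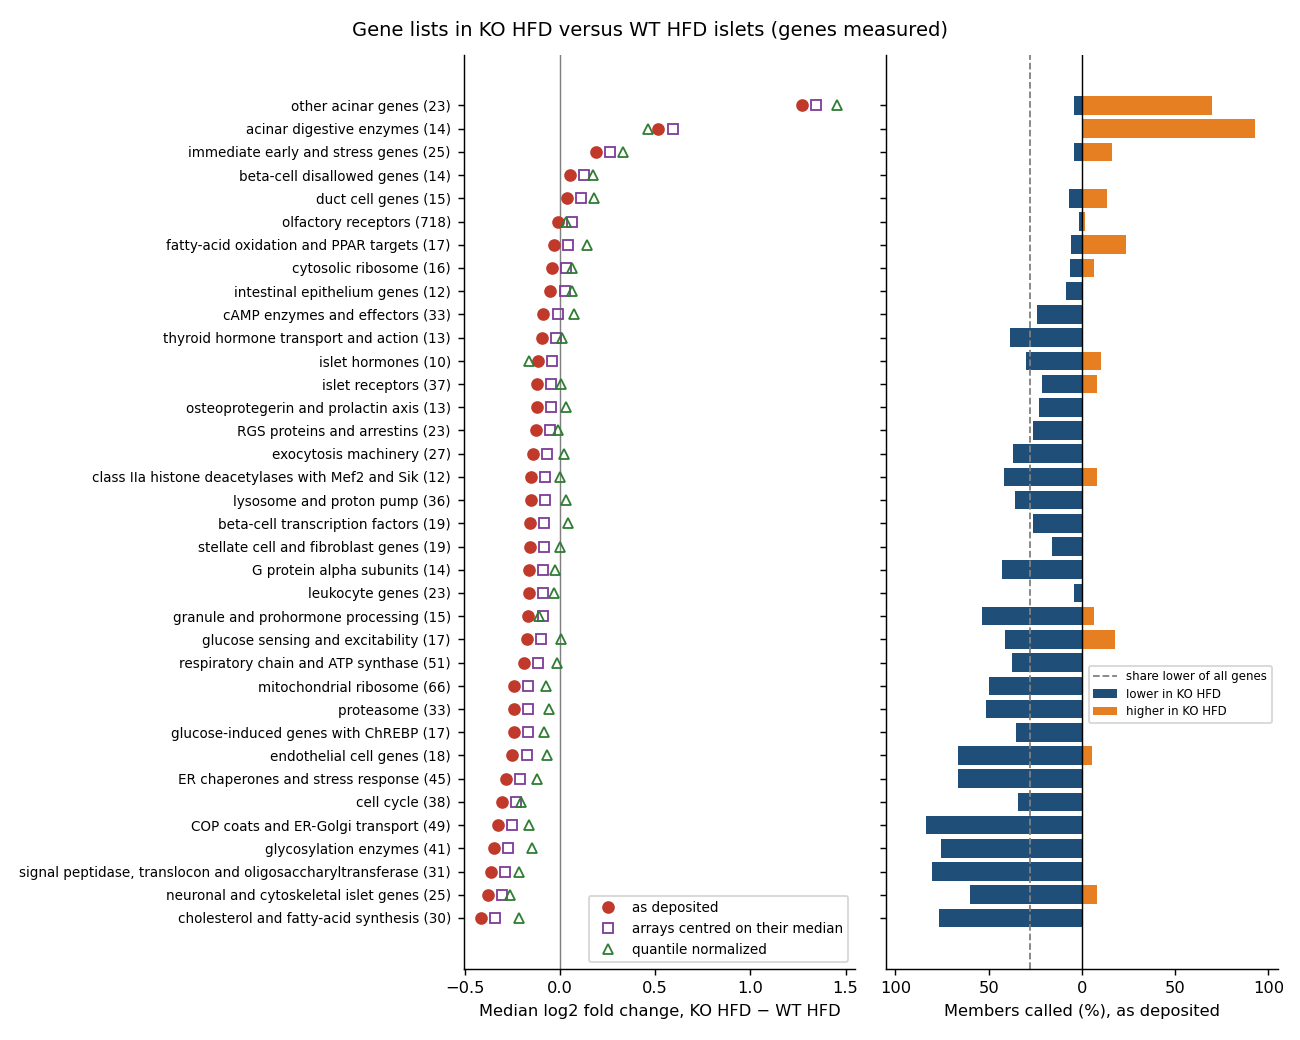
Left, median log2 fold change of the measured genes of 36 lists between KO HFD and WT HFD islets, as deposited, with arrays centred on their median, and after quantile normalization. Right, percent of the measured genes of each list that were lower or higher as deposited, with the share of all genes that were lower (28.1%) as a dashed line. Acinar lists lie highest, and as deposited and after centring the lipid synthesis, neuronal, ER entry, glycosylation and coat lists lie lowest.

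On the CD the same genotype gave far fewer differences. Between KO CD and WT CD islets, 23 of 14860 genes (0.155%) passed and the median of all genes was 0.04. That count was 62 without KO CD 1, 44 without KO CD 13, and 6 to 11 without KO CD 2, 3 or 12 or any 1 of the 5 WT CD arrays. No gene of the signal peptidase, chaperone, coat or lipid synthesis lists passed on the CD, where the medians were 0.02, 0.00, 0.00 and 0.03. The difference itself was tested as the interaction of genotype and diet. At a limma adjusted p under 0.05, it passed below 0 in 31.2% of the genes and above 0 in 1.45%. The median interaction of all genes was −0.18 as deposited and −0.08 after centring. With the acinar covariate no gene passed this test in limma, although 3394 had an unadjusted p under 0.05.

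For Hdac9 the genotype difference was −0.28 (SE 0.16) on the CD and −1.46 on the HFD, and the interaction was −1.18 (adjusted p = 0.0057). The WT HFD arrays were all above the WT CD arrays for Hdac9, at 9.83 to 10.08 against 9.43 to 9.65. The interaction was −2.16 for Mc5r (adjusted p = 0.017), −1.42 for Serpina7 (0.025), −1.25 for Tnfrsf11b (0.0049) and −1.01 for Arrdc4 (0.0039). The 6 genes with the smallest unadjusted p of the interaction, whose adjusted p of 0.0025 they share with other genes, were Napb, Spcs1, Slc25a36, a mitochondrial pyrimidine nucleotide carrier, Lyrm2, a LYR-motif protein of mitochondria, P3h1, a collagen prolyl hydroxylase, and Coa5, an assembly factor of cytochrome c oxidase. Napb read 9.27 to 9.72 in KO CD and 9.03 to 9.37 in WT CD islets, a difference of 0.30 (SE 0.09) that did not pass on the CD, against −0.90 on the HFD. Each of these 6 genes had a positive difference on the CD, from 0.12 to 0.30, and a negative one on the HFD, from −0.51 to −0.90. None of the differences on the CD passed (limma adjusted p 0.099 to 0.35). Choosing genes by the interaction favours opposite signs on the 2 diets, so that the shared reversal is no separate result.

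Only 11 genes passed on both diets. Besides Gnaz, Ctf1 (cardiotrophin 1, a cytokine) was lower on both, at −0.48 (SE 0.08) on the CD and −0.39 (SE 0.10) on the HFD. Nmnat2, Dlk1, Gria3 (an AMPA receptor subunit), Sult1d1 (a sulfotransferase) and Ppp4r4 (a phosphatase subunit) were higher on both. Dlk1 read 9.07, 9.33 and 9.35 in KO HFD and 8.74, 8.76, 8.76 and 8.56 in WT HFD islets, and 9.49 to 10.13 in KO CD against 8.70 to 8.89 in WT CD islets. No KO array overlapped with a WT array for Dlk1, and its difference was 0.97 (SE 0.11) on the CD and 0.54 (SE 0.13) on the HFD. The interaction of Dlk1 did not pass (−0.42, adjusted p = 0.063), nor did that of Nmnat2, Gria3, Sult1d1, Ppp4r4 and Ctf1. On the HFD the calls of Sult1d1 (islet 8, 16, 17 or 18) and Ppp4r4 (islet 8, 9, 10, 16, 17 or 18) were lost when 1 of these arrays was left out, at 0.58 to 0.83 and 0.16 to 0.20.

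The remaining 4 genes were higher in KO CD and lower in KO HFD islets. Ndn (necdin), which like Dlk1 is an imprinted gene, read 10.25, 10.14 and 10.30 in KO HFD and 10.69, 10.51, 10.60 and 10.51 in WT HFD islets, but 10.61 to 11.06 in KO CD and 10.30 to 10.50 in WT CD islets. Its differences were −0.34 (SE 0.09) and 0.43 (SE 0.08), and the interaction of −0.78 passed (adjusted p = 0.0025). B3galt1 (a galactosyltransferase), Rab22a (a small GTPase of endosomes) and Serpini1 (neuroserpin) had the same signs, with interactions of −0.75, −0.41 and −0.79. After centring, Ndn remained lower on the HFD and the other three did not pass. On the HFD, Ndn lost its call without islet 17 (−0.30, adjusted p = 0.054), Rab22a without islet 7, 8 or 18 (−0.16 to −0.14), and Serpini1 without islet 7, 8, 16, 17 or 18 (−0.32 to −0.26).

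**Figure D5:**
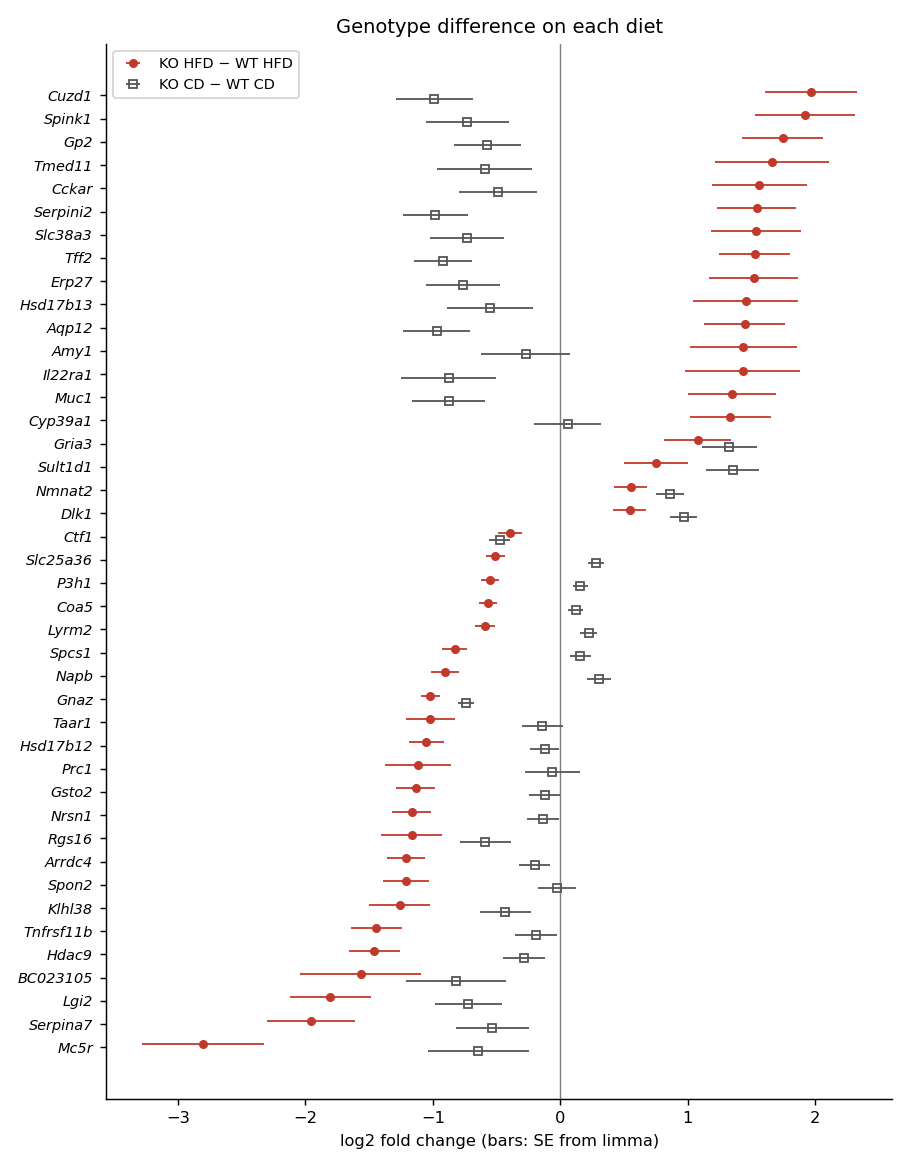
Log2 fold change of KO minus WT on the HFD (circles) and on the CD (squares) for the largest rises and falls on the HFD, the 6 genes with the smallest unadjusted p of the interaction and Gnaz, Gria3, Sult1d1, Nmnat2, Dlk1 and Ctf1. Bars are limma standard errors. The acinar genes at the top have negative differences on the CD, and Gnaz, Ctf1, Dlk1, Nmnat2, Gria3 and Sult1d1 have the same sign on both diets.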

How the data were processed

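RNA of isolated islets was hybridised to Affymetrix mouse arrays, and the authors deposited 1 table of log2 expression values per transcript cluster, made by RMA (background correction, quantile normalization and summary of probes). Affymetrix Expression Console 1.3 is named in the submitters' processing notes, and the genome build of the array annotation is not given in the sources used here. The exon-level values were not used here. Of 23332 clusters, 14996 carried 1 gene symbol in the platform annotation, 1019 several and 7317 none, and for 135 genes with more than 1 cluster the brightest was kept, which left 14860 genes (14805 with a gene ID in the RefSeq table). Groups came from the sample labels. Values of 17 arrays were fitted with 1 mean per group in limma 3.58.1 (R 4.3.3, lmFit and eBayes), with contrasts for genotype on each diet and for their interaction, Benjamini-Hochberg adjustment over all genes and a threshold of 0.05, two-sided. The fit was tested on simulated data. All members, the 36 gene lists and the tests were chosen with earlier results of these data known. Genes were named by rule: the 6 lead genes, the 15 largest called rises and falls with groups that did not overlap, up to 5 genes per list by adjusted p, hormones and chosen receptors, and the 6 smallest p of the interaction (unadjusted, since adjusted values were tied). List members that did not pass, the genes called on both diets and the other members with values were named after their values were seen. Alternatives were other scalings, all 18 arrays, only the 7 HFD arrays, array weights, trend and robust moderation, the acinar enzyme mean as a covariate, the islet number range as a block, other gene filters, a threshold of 0.01 and the omission of each array. RefSeq promoters (GRCm38.p6) matched 11869 genes by gene ID. Tables and plots were made in Python 3.11.15 (matplotlib 3.10.9, pandas 2.3.3, numpy 2.4.6, scipy 1.17.1).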

Additional observations from a re-analysis of the deposited data

Results flagged for a closer look

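In groups of 4 arrays, a single array stood far from the other 3 for a number of the genes and list means given above. Chance flags about 1 in 20 groups. The check covered 179 named genes and 36 list means in both groups, so that many of the flags below can be due to chance. The 4 KO HFD arrays with islet 11 and the 4 WT HFD arrays were examined.

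Among the KO HFD arrays, islet 10 was flagged for the following genes and lists. It was highest for Klf6 (10.02), Man2a1 (11.25), Spink1 (11.09) and Ptger3 (9.44), and its mean of the other acinar genes was 11.66. It was lowest for Mgat5 (9.18), Sqle (9.49), Gcg (14.01), Kcnn3 (10.57) and Lgi2 (8.61), and for the means of the glucose sensing list (10.23) and the granule list (11.88).

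Flags also fell on islet 11, set against the 3 KO HFD arrays in the fit. It was highest for Sdf2l1 (12.72), Rpn1 (11.79), Cope (12.13), Spcs3 (12.05), Manf (11.46) and Apoa4 (14.05), and for the means of the glycosylation (10.02), lysosome (11.24) and intestinal (11.01) lists, and lowest for Cacna1d (10.30).

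Among the WT HFD arrays, islet 7 stood apart for Prkar1a (12.48), Fut8 (9.63), Mafa (11.39), Lgi2 (11.60), Kcnj11 (10.40), Mef2a (10.98), Copb2 (11.89) and Apoa4 (7.32), and for the means of the coat (11.48), class IIa deacetylase (9.66) and neuronal (9.53) lists. Islet 8 stood apart for Ppy (14.21), and islet 16 for Dlk1 (8.56) and the leukocyte mean (9.06).

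Over all genes the median interaction of genotype and diet was −0.18 as deposited, −0.08 after centring and −0.01 after quantile normalization. The genotype difference itself differed between the diets by the limma interaction test in 4849 genes. Among those described above, the difference on the HFD minus that on the CD was −0.28 for Gnaz, −2.16 for Mc5r, −1.42 for Serpina7, −1.25 for Tnfrsf11b, −1.18 for Hdac9 and −1.01 for Arrdc4. It was −1.21 for Napb, −0.99 for Spcs1, −0.81 for Lyrm2, −0.79 for Slc25a36, −0.71 for P3h1 and −0.69 for Coa5, and −0.78 for Ndn, −0.79 for Serpini1, −0.75 for B3galt1 and −0.41 for Rab22a. The value of Gnaz lay nearest to the median of all genes as deposited.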

How the results depend on the processing

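Counts depended on the scaling between arrays and fell furthest with the acinar enzyme mean as a covariate. The 4372 genes called between KO HFD and WT HFD (196 higher, 4176 lower) became 2251 (315 and 1936) after centring over all clusters, 1640 (716 and 924) after quantile normalization, 1555 (786 and 769) after cyclic loess, and 1526 (731 and 795) after centring over the genes tested. This last scaling, and the list counts under these scalings, were chosen after seeing the data. The median of all genes, −0.13 as deposited, was −0.0002 after quantile normalization, 0.0038 after cyclic loess and 0.0411 after centring over the genes tested. With the acinar covariate 100 genes were called (5 and 95), at an adjusted p under 0.01 1801 (69 and 1732), and with array weights 307 were higher. After centring, 1108 were called in the 7 HFD arrays alone, 4 with the covariate and 714 at 0.01. The 4849 interactions (216 above 0, 4633 below 0) became 2194 (1874 below 0) after centring, 1094 (484 and 610) after quantile normalization, 1028 (559 and 469) after cyclic loess, 1189 (692 and 497) after centring over the genes tested, 0 (0 and 0) with the covariate and 1576 (50 and 1526) at 0.01. The 23 genes called on the CD became 40, 53, 41, 3 and 4 with quantile normalization, cyclic loess, array weights, the covariate and 0.01. The cause of these shifts was not tested.

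The omission of 1 array gave 2636 to 4634 genes called on the HFD (125 to 220 higher, 2475 to 4433 lower), 1113 to 2382 after centring, 6 to 62 on the CD and 3547 to 5403 interactions. Of 134 named genes called, 101 kept the call under every omission. Signs turned for Klf6 (−0.0929) and P2ry14 (−0.0488) with the covariate, Rab22a after quantile normalization (0.0252) and cyclic loess (0.0363), and Gnas (0.0022) and Sec24b (0.1504) after cyclic loess. No paired analysis was possible because no islet number is shared between groups. With the range of islet numbers as a block, 4177 genes were called. The number of arrays, with 3 KO HFD islets, limits the precision.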

Other observations

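Lysosome and proton pump genes, which acidify and clear cell compartments, had a median signal of 11.49, in the brightest decile, where 51.9% were lower. They were lower in 13 of 36 cases (36.1%, and 28.1% among all genes). None was higher, and 23 did not pass. Their median log2 fold change was −0.16 as deposited, near that of all genes, and 0.03 after quantile normalization, so that the direction of the list depended on the scaling. Atp6v1g2, a subunit of the proton pump, fell by 0.51 (SE 0.07, limma adjusted p = 4.9e-04), from 9.94 ± 0.11 (SD, n = 4) in WT HFD to 9.44 ± 0.04 (SD, n = 3) in KO HFD islets. Asah1, the acid ceramidase, fell by 0.38 and Npc1, which exports cholesterol from lysosomes, by 0.31. Of 23 regulators of G protein signaling and arrestins, 17 did not pass, and the median was −0.12. The other 6 were lower (26.1%, near the 28.1% of all genes). Besides Arrdc4 and Rgs16 these included Rgs5, a marker of pericytes, which read 10.85, 10.53 and 10.70 in KO HFD and 11.09, 11.26, 11.28 and 11.07 in WT HFD islets and fell by 0.48 (SE 0.08, adjusted p = 0.0010), and Arrdc1, which fell by 0.26.

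None of 14 disallowed genes, which beta cells normally keep low, passed in limma, at a median of 0.05, and the smallest adjusted p was that of Hk1 (hexokinase 1), at −0.21 (SE 0.11, unadjusted p = 0.061, adjusted p = 0.14). Of 16 cytosolic ribosome genes 1 was lower (6.25%, against 28.1% of all genes), Rpl10a at −0.49 (limma adjusted p = 0.0026). The 1 higher gene (6.25%, against 1.32%) was Rpsa at 0.31 (adjusted p = 0.030), which lost its call without islet 7, 10, 16 or 17 (0.27 to 0.32, adjusted p up to 0.11). Of 718 olfactory receptor genes, which islets hardly express, 10 were lower and 10 higher (1.39% each), with a median of −0.01. Their median signal of 5.14 lay in the dimmest decile, where 2.09% of genes were lower.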
